A study of Acomys cahirinus and Mus musculus with 10 samples.

Results

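The genes of microfibrils and elastic fibres are described here by their levels in healing ear tissue: the fibrillins Fbn1 and Fbn2, elastin (Eln), the microfibril-associated proteins Mfap2 and Mfap5, the latent TGF-beta binding protein Ltbp2, the fibulins Fbln1, Fbln2 and Fbln5, and the emilin Emilin1. These 10 genes are the members of a list of mouse symbols, set among 24092 M. musculus genes and 676820 A. cahirinus assembly components in the deposited tables. All 10 symbols had a value in each of the 8 comparisons, but the A. cahirinus component taken for Ltbp2 scored higher to Fbn1, so the A. cahirinus calls and medians and the counts of species differences are also given without it. A component is a group of contigs that the transcriptome assembler joined, and it stands in for a gene in A. cahirinus, which was measured without a genome.

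The samples were ear tissue of the spiny mouse A. cahirinus, labelled uninjured at D0 and regenerating from D5 on, and of the house mouse M. musculus, labelled uninjured and then fibrotic. A ring of tissue near the healing margin was cut from sexually mature females on the day of a 4-mm ear punch (D0) and 5, 10, 15 or 20 days later, with 3 animals per species and day by the study's account. M. musculus were outbred CD1 mice, the strain the study names for its RNA-seq values. The comparisons ask how the genes of each species stand on each later day against D0 of the same species. No drug, transgene or deletion is given for any group. The ring holds all the cell types of the ear there, so for every value given here fewer cells of a type and less RNA per cell cannot be told apart.

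Elastic fibres of skin and ear are built in steps. Fibrillins assemble into microfibrils, to which Mfap2 and Mfap5 (also called MAGP-1 and MAGP-2) bind, and tropoelastin, the product of Eln, is laid down on this scaffold and cross-linked by lysyl oxidases. Fibulins and Emilin1 sit between elastin and the microfibril or the cell, Fbln5 is needed for elastic fibre assembly, and Ltbp2 binds fibrillin without binding TGF-beta. Fbn2 is known as the fibrillin of developing tissue and Fbn1 as the main fibrillin of adult tissue.

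Sequences show how a component was tied to a gene and where that tie was mixed. In each pair of lines the A. cahirinus contig stands above the M. musculus transcript, both from the deposited references, 5′ to 3′, with capitals at the bases that differ. The first window lies in exon 1 of Fbn1 (GRCm38 chr2:125505542-125505601, minus strand, coding), where 1 of 60 bases differed, and it is shown because Fbn1 has the deepest counts of the list at later days in M. musculus.
Fbn1 A. cahirinus: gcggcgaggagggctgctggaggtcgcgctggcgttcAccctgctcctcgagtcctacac
Fbn1 M. musculus: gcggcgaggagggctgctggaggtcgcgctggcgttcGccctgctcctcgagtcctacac

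The next 2 windows come from contigs of a single component, comp464076_c12, which is the top match to Ltbp2 and scores higher still to Fbn1. The first of them is in exon 43 of Fbn1 (chr2:125338497-125338556, minus strand, coding), with 4 of 60 bases different. The other is in exon 23 of Ltbp2 (chr12:84791883-84791942, minus strand, coding), with 7 of 60 different. They are shown because this component carries reads of both genes.
Fbn1 window A. cahirinus: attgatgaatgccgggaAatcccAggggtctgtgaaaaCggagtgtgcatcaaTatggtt
Fbn1 window M. musculus: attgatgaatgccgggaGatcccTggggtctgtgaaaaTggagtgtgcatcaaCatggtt
Ltbp2 window A. cahirinus: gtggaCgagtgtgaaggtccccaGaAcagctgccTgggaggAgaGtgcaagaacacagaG
Ltbp2 window M. musculus: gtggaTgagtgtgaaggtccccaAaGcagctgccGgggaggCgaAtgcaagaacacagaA

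The last 3 windows are of genes whose mean was below D0 in A. cahirinus and above it in M. musculus at D5. They are Eln in exon 33 (chr5:134706370-134706414, minus strand), Mfap2 in exon 3 (chr4:141013775-141013834, plus strand) and Mfap5 in exon 8 (chr6:122525951-122526010, plus strand), all coding. The D5 means of Fbn2 and Fbln1 lay the same way, but no window is shown for them. Of the 3 genes shown, only Mfap5 was called in both species at D5. Of 45 bases of Eln 2 differed, of 60 bases of Mfap2 also 2, and of 60 bases of Mfap5 6.
Eln A. cahirinus: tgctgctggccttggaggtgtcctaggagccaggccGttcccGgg
Eln M. musculus: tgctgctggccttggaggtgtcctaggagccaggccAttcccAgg
Mfap2 A. cahirinus: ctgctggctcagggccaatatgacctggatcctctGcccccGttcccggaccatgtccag
Mfap2 M. musculus: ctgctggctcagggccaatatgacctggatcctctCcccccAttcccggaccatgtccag
Mfap5 A. cahirinus: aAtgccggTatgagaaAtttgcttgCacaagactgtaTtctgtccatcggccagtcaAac
Mfap5 M. musculus: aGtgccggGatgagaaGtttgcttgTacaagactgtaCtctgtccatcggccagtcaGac

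Over whole alignments the 10 components were 87.65% to 93.39% identical to their M. musculus transcript, over 672 to 8849 aligned bases. In the GRCm38 annotation Fbn1 spans chr2:125300594-125507993 (minus strand), Fbn2 chr18:58008623-58210487 (minus), Eln chr5:134702593-134747323 (minus) and Mfap2 chr4:141010418-141015984 (plus). Mfap5 spans chr6:122505845-122529290 (plus), Ltbp2 chr12:84783212-84876532 (minus), Fbln1 chr15:85205949-85286535 (plus) and Fbln2 chr6:91212455-91272540 (plus). Fbln5 spans chr12:101746565-101819055 (minus) and Emilin1 chr5:30913402-30921277 (plus).

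Levels are normalized counts, the group means that the authors' ratios imply, on the D0 scale of each species. For D0 the count of each library could be recovered, with 14888621 to 18659218 reads per A. cahirinus library and 5922743 to 7873753 per M. musculus library. Later days give a group mean, and single libraries for only a few genes. At D15 the A. cahirinus means moved in steps of 2 libraries rather than 3, so D15 values of this species rest on 2 libraries. A gene is called changed at a deposited posterior probability of differential expression (EBSeq) of at least 0.95. Counting error of a group mean of the 10 listed features was at most 9.76%, for Mfap2 in M. musculus at D0 with 105 reads. Replicates are separate animals by the study's account. An exact permutation test of 3 against 3 libraries sets the difference between groups against that of every other split of the same libraries. Its p-value cannot fall below 0.1.

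On each day M. musculus had more genes of the list called higher than A. cahirinus had, a difference that was not tested. The calls come from separate fits over unlike sets of features, so the counts of the 2 species are not on a common scale. On D5, D10, D15 and D20 in turn, 9, 10, 10 and 9 of the 10 genes were called higher in M. musculus and 0 lower. Among all M. musculus genes tested, 16.5%, 15.1%, 13.2% and 12.3% were called higher, 13.6%, 14.1%, 12.5% and 11.9% lower and 30.0%, 29.2%, 25.7% and 24.2% either way. Of those with a mean of at least 10, 23.8%, 21.3%, 18.9% and 17.6% were called higher and 19.4%, 19.6%, 17.9% and 17.0% lower. In A. cahirinus 4, 7, 8 and 7 genes of the list were called higher and 1, 1, 0 and 0 lower. Across all components the shares called higher were 1.78%, 1.28%, 1.33% and 0.948%, the shares called lower 0.978%, 0.88%, 1.11% and 0.9%, and both together 2.75%, 2.16%, 2.44% and 1.85%. Of components with a mean of at least 10, 7.52%, 5.06%, 5.13% and 4.02% were called higher and 4.09%, 3.37%, 4.11% and 3.86% lower. The M. musculus median log2 change of the list was 1.99, 2.65, 2.67 and 2.55, and that of A. cahirinus -0.01, 1.33, 0.95 and 0.70, where the median of all features with a mean of at least 10 lay between -0.02 and 0.02. Fibroblasts are the main source of these proteins in dermis, and the M. musculus sum of 7 measured fibroblast markers changed by 1.97, 2.92, 3.03 and 3.06 (log2) on the same days. The A. cahirinus sum changed by 0.12, 1.86, 2.24 and 1.93, and Col1a1 and Col3a1 make up most of both sums from D10 on. The median marker changed by 1.34, 1.38, 1.55 and 1.49 in M. musculus and by 0.25, 1.44, 1.42 and 1.44 in A. cahirinus, with 6 of 7 called higher on every day in the former and 3, 6, 6 and 6 in the latter. The part of fibroblasts in the result was not tested. Without Ltbp2, 3, 6, 7 and 6 of the other 9 genes were called higher in A. cahirinus, with medians of -0.22, 1.31, 0.94 and 0.82. With a least log2 change of 1 the A. cahirinus counts fell to 1, 6, 4 and 4 higher and 1, 0, 0 and 0 lower, and without Ltbp2 to 1, 5, 4 and 4 higher with the same counts lower.

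**Figure D1:**
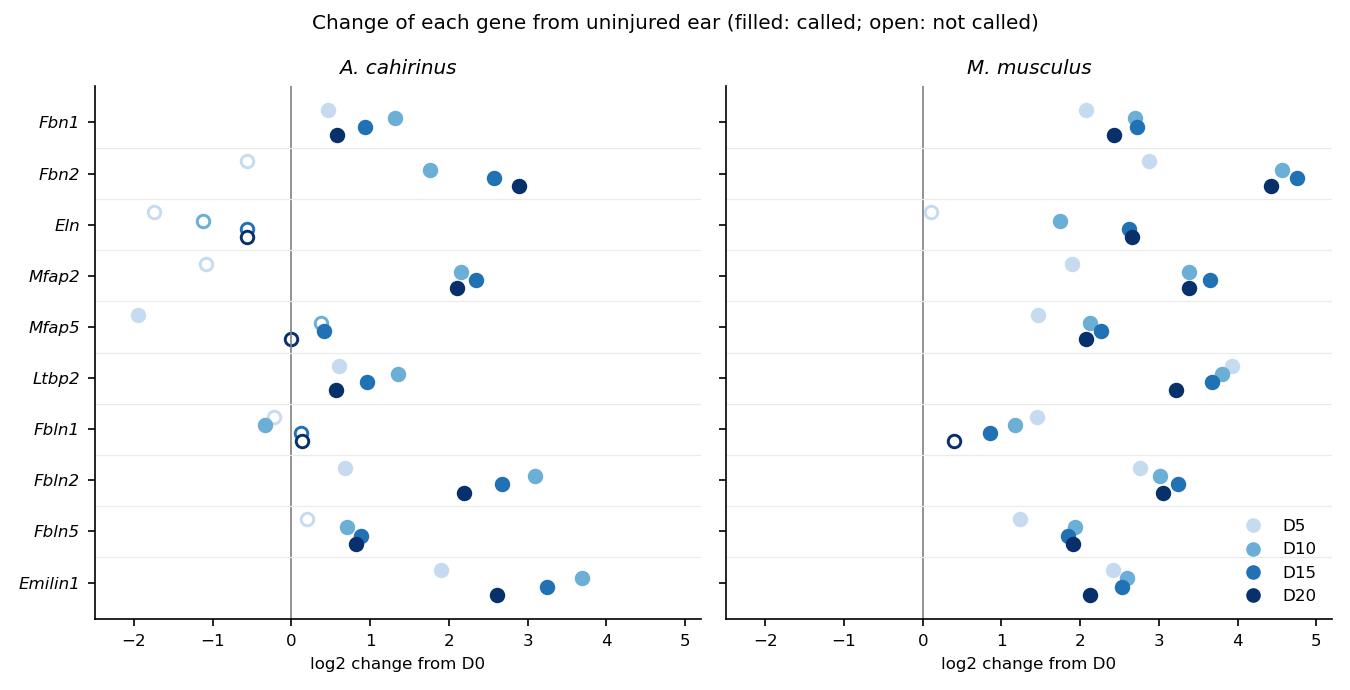
Log2 change of each gene from D0 (x axis) in A. cahirinus (left) and M. musculus (right), a point for each day, filled where the gene was called changed and open where it was not. In M. musculus every filled point lies to the right of 0, and in A. cahirinus Eln has no filled point.

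In uninjured M. musculus ear Eln and Fbn1 had the highest levels of the list, while in A. cahirinus the range of Mfap5 overlapped that of Fbn1. Per kilobase of the longest transcript, the D0 order in M. musculus was Eln at 403 normalized counts, Fbn1 at 279, Fbln2 at 125, Fbln1 at 53.6, Mfap5 at 52.9, Emilin1 at 37.2, Mfap2 at 36.1, Fbln5 at 28.5, Fbn2 at 22.4 and Ltbp2 at 13.5. The library ranges of neighbours overlapped for Fbln1 and Mfap5, for Emilin1 and Mfap2 and for Fbln5 and Fbn2, and for no other neighbours in this order. Per kilobase of the longest contig, the order in A. cahirinus was Eln at 568, Fbn1 at 409, Mfap5 at 345, the mixed Ltbp2 component at 212, Fbln5 at 165, Fbln2 at 142, Fbln1 at 132, Mfap2 at 82.8, Fbn2 at 49.4 and Emilin1 at 29.5. There Eln, Fbn1 and Mfap5 overlapped in turn, as did Fbln2 with Fbln1 and Mfap2, Fbn2 and Emilin1 in turn. The A. cahirinus order depends on contig length, since the Fbln2 contig of 12232 bases aligned over 2265 bases and another Eln component stood at 1470 per kilobase. The coefficient of variation between the 3 D0 libraries ran from 1.14% (Fbn1) to 18.4% (Fbln1) in M. musculus, and from 2.94% (Fbln5) to 34.7% (Mfap2) in A. cahirinus.

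**Figure D2:**
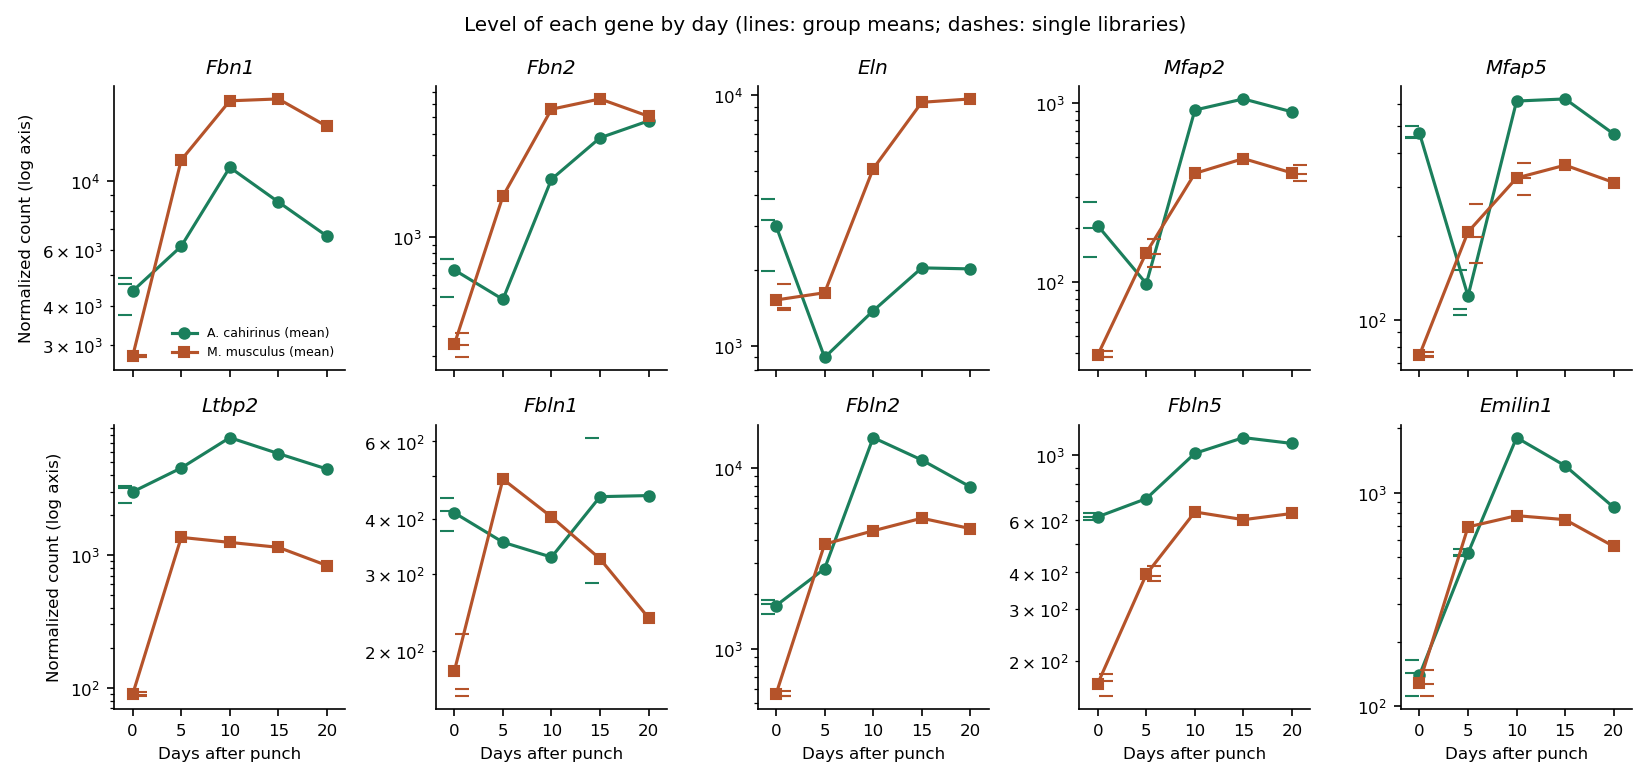
Normalized count of each gene (log axis) against days after the punch in A. cahirinus (circles) and M. musculus (squares), with lines through the group means and dashes for single libraries where these could be recovered. The 3 Mfap5 libraries of A. cahirinus at D5 lie below all 3 at D0, and the Eln mean is 899.5 at D5 against 3010 at D0. The scales of the species were set separately, so heights are to be read within a species.

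Fbn1, the main fibrillin, was called higher on all 4 days in both species, in A. cahirinus by its top-scoring component. In M. musculus its 3 D0 libraries lay at 2738, 2749 and 2797 normalized counts (2761 ± 31.5, SD, n = 3), and the group means of D5 to D20 were 11620, 17920, 18170 and 14860. These are log2 changes of 2.07, 2.70, 2.72 and 2.43, or 4.21-fold to 6.58-fold, all called. In A. cahirinus the D0 libraries lay at 3744, 4703 and 4908 (4452 ± 621, SD, n = 3), and the means were 6180, 11010, 8547 and 6657. The log2 changes of 0.47, 1.31, 0.94 and 0.58 were all called, the first with a posterior probability of 0.955. This component aligns at bases 1 to 3629 of the transcript. Another component, at bases 9267 to 9899 and on no other named gene, gave 0.52, 1.33, 1.04 and 0.56. It was called at D10 and D15 but not at D5 or D20 (posterior probabilities 0.825 and 0.941).

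Fbn2, the developmental fibrillin, had the largest rise of the list in M. musculus. Its D0 libraries there lay at 196.8, 233.7 and 274.5 (235.0 ± 38.9, SD, n = 3), and the means rose to 1724, 5558, 6383 and 5053. The log2 changes were 2.87, 4.56, 4.76 and 4.43, with D15 27.2-fold above D0, all called. The A. cahirinus D0 libraries lay at 443.2, 735.7 and 738.2 (639.0 ± 170, SD, n = 3), and the means were 430.0, 2166, 3784 and 4753. At D5 the log2 change of -0.57 was not called (posterior probability 0.00311), and that mean is below the lowest D0 library. The later values of 1.76, 2.57 and 2.89 were called, and each day's mean was above the one before.

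The ratio of the fibrillins differed from D0 on later days in both species. Per kilobase, the Fbn2 level was 0.0804 of the Fbn1 level in M. musculus at D0 (libraries 0.0676 to 0.0947), then 0.14, 0.293, 0.332 and 0.321. In A. cahirinus the ratio was 0.121 at D0 (libraries 0.0996 to 0.132), then 0.0585, 0.165, 0.372 and 0.6. The height of the A. cahirinus ratio depends on contig length. The Fbn1 alignment spans 3629 bases against a contig of 10885, and the Fbn2 alignment 8849 against 12943. The species can thus be compared only by the course of the ratio over days. All later M. musculus ratios were above the range of the D0 libraries, and in A. cahirinus D5 was below it and D10 to D20 above it. Library values of both genes on later days were not recovered, so the change in ratio was not tested.

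**Figure D3:**
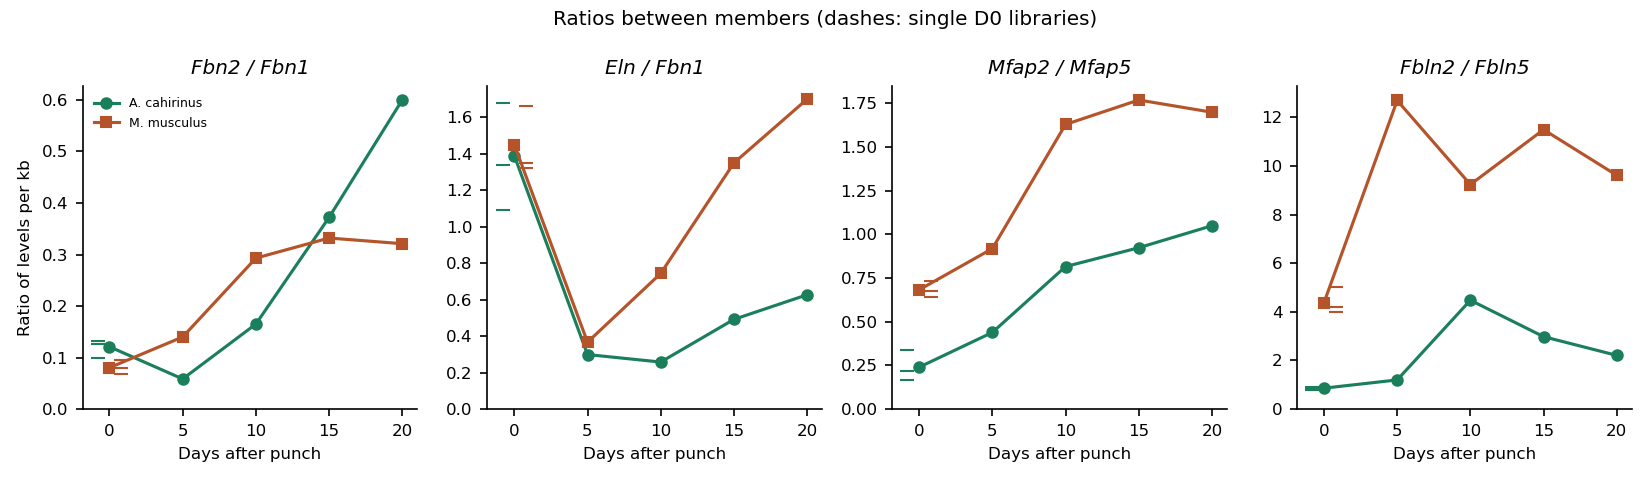
Ratio of the levels per kilobase of 4 pairs of genes (y axis) against days after the punch, with circles for A. cahirinus, squares for M. musculus and dashes for single D0 libraries. The Fbn2 to Fbn1 ratio reaches 0.6 at D20 in A. cahirinus and 0.321 in M. musculus. The Eln to Fbn1 ratio ends at 0.627 and 1.7. Heights in A. cahirinus depend on contig length, so the species are to be compared only by the course over days.

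Eln, which encodes the elastic core of the fibre, was called higher from D10 in M. musculus and on no day in A. cahirinus, where its means lay below D0. In M. musculus the D0 libraries lay at 1389, 1413 and 1773 (1525 ± 215, SD, n = 3). The D5 mean of 1630 was inside that range, with a log2 change of 0.10 that was not called (posterior probability 0.0595). The means of 5090, 9369 and 9664 at D10, D15 and D20 were log2 changes of 1.74, 2.62 and 2.66, all called. The A. cahirinus D0 libraries lay at 1993, 3188 and 3849 (3010 ± 941, SD, n = 3). The means were 899.5, 1381, 2048 and 2029, of which the first 2 lay below the lowest D0 library and the last 2 inside the D0 range. The log2 changes of -1.74, -1.12, -0.56 and -0.57 were not called, with posterior probabilities of 0.224, 0.000867, 1.27e-05 and 2.87e-06.

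A. cahirinus elastin was split over 4 components that align to separate stretches of the M. musculus transcript, at bases 5 to 262, 515 to 1236, 1910 to 2227 and 2332 to 3116. The top-scoring component, used above, is the last of these. In this order their log2 changes at D5 were -1.84, -1.55, -1.51 and -1.74, and at D20 -0.54, -0.30, -0.14 and -0.57, so all 4 were lowest at D5 and below D0 on every day. The first was called lower at D5, D10 and D15 and the third at D5, with the other values not called. D0 libraries of the first component lay at 318, 401 and 471 normalized counts. Parts of 3 of the 4 components also align to another gene (Chaf1b, Lrig2 and Prkd3), with lower scores. Summed over the 4 components, the log2 change was -1.67, -1.02, -0.42 and -0.44.

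**Figure D4:**
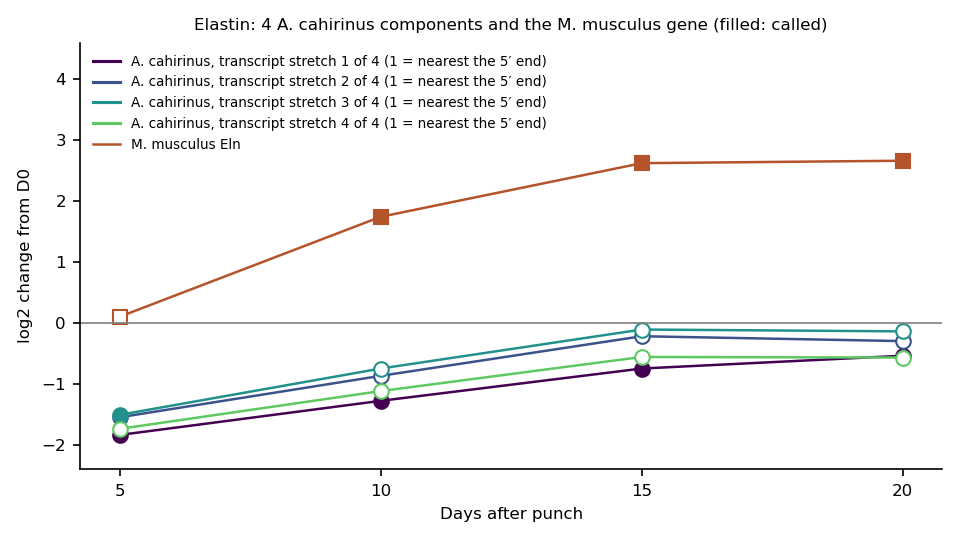
Log2 change from D0 (y axis) by day for the 4 A. cahirinus components that align to separate stretches of the elastin transcript (circles) and for M. musculus Eln (squares), filled where called. The 4 lines run together below 0 and closest to it at D15 or D20, and the M. musculus line climbs to 2.66.

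The ratio of elastin to the main fibrillin was below D0 at D5 in both species. The Eln to Fbn1 ratio per kilobase was 1.45 at D0 in M. musculus (libraries 1.32 to 1.66), then 0.367, 0.744, 1.35 and 1.7. In A. cahirinus it was 1.39 at D0 (libraries 1.09 to 1.68) and 0.299, 0.258, 0.492 and 0.627 later. The M. musculus ratio was thus within the range of its D0 libraries again at D15 and slightly above it at D20, while every later A. cahirinus ratio stayed below its lowest D0 library. The A. cahirinus level divides by a contig of 5295 bases of which 787 align to Eln, and the next elastin component gave ratios of 3.6 at D0 and 0.887, 0.794, 1.61 and 1.95 later, lower than at D0 on every day but at another height.

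Mfap2, which binds fibrillin and tropoelastin, was called higher from D10 in A. cahirinus and from D5 in M. musculus. The M. musculus D0 libraries lay at 37.78, 37.86 and 41.32 (38.99 ± 2.02, SD, n = 3), and whole reads gave single libraries of 121.2, 142.4 and 173.7 at D5 and 368.8, 401.9 and 449.9 at D20. Neither later group overlapped D0, and an exact two-sided permutation test of 3 against 3 libraries gave p = 0.1 for each, the smallest this design allows. The log2 changes at D5 to D20 were 1.90, 3.38, 3.65 and 3.38, all called. In A. cahirinus the D0 libraries lay at 138.1, 200 and 280.7 (206.3 ± 71.5, SD, n = 3) and the means at 97.82, 915.2, 1056 and 894.0. The D5 log2 change of -1.08 was not called (posterior probability 0.125), and those of 2.15, 2.35 and 2.11 were.

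Mfap5, which binds microfibrils, fell at D5 in A. cahirinus on the day it rose in M. musculus. The A. cahirinus libraries lay at 453.1, 456.6 and 500.1 at D0 (470.0 ± 26.2, SD, n = 3) and at 103.9, 109.6 and 151.6 at D5 (121.7 ± 26.1, SD, n = 3). The M. musculus libraries lay at 73.10, 73.78 and 76.67 at D0 (74.52 ± 1.90, SD, n = 3), at 159.8, 199.3 and 262.1 at D5 (207.1 ± 51.6, SD, n = 3) and at 280.5, 325.2 and 366.3 at D10. None of these later groups overlapped its D0 group, and each exact two-sided permutation test gave p = 0.1, the smallest 3 against 3 allows. The log2 change in A. cahirinus was -1.95 at D5 (called lower), 0.38 at D10 (not called, posterior probability 0.365), 0.41 at D15 (called higher) and -0.01 at D20 (not called). In M. musculus it was 1.47, 2.12, 2.27 and 2.07, all called higher. The Mfap2 to Mfap5 ratio per kilobase went from 0.24 at D0 (libraries 0.167 to 0.336) to 1.05 at D20 in A. cahirinus. In M. musculus it went from 0.683 (libraries 0.643 to 0.731) to 1.7. The height of the A. cahirinus ratio depends on contig length, so the species can be compared only by its course. The Mfap2 alignment spans 678 bases against a contig of 2493, and the Mfap5 alignment 672 against 1363.

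Ltbp2, a fibrillin-binding protein, had the lowest level per kilobase in uninjured M. musculus and was called higher there on every day. Its D0 libraries lay at 86.46, 88.73 and 92.59 (89.26 ± 3.10, SD, n = 3), and the means of 1358, 1245, 1143 and 833.7 were log2 changes of 3.93, 3.80, 3.68 and 3.22, or 15.2-fold at D5, all called. It was the only gene of the list with its highest M. musculus level at D5 other than Fbln1.

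No deep component of A. cahirinus held Ltbp2 alone. The top match, comp464076_c12, scored 2730 bits to Ltbp2 and 3307 bits to Fbn1, and of its 141 aligned contigs 77 matched both genes, 62 Fbn1 without Ltbp2 and 2 Ltbp2 without Fbn1. Its log2 changes of 0.60, 1.36, 0.96 and 0.57 were called, and the Fbn1 component gave 0.47, 1.31, 0.94 and 0.58. The second match, comp464287_c33, scored 2183 bits to Ltbp2 and 1229 to Fbn1, with 39 of 61 aligned contigs on Ltbp2 without Fbn1, 22 on both and 0 on Fbn1 without Ltbp2. Its D0 libraries lay at 801, 1060 and 1130 normalized counts. Its log2 changes of 1.09 at D10 and 0.71 at D15 were called, and those of 0.48 at D5 and 0.40 at D20 were not (posterior probabilities 0.729 and 0.0112). The third match, comp462468_c18, scored 922 bits to Ltbp2 and 4201 to Kdm6b, and gave 1.55 (called), 0.27 (not called), 0.44 (called) and 0.17 (not called). A shallow component that aligns to Ltbp2 and to no other named gene, chosen after its values were seen, held 5.923, 7.883 and 8.485 normalized counts in the D0 libraries, from 6 to 11 reads each, and means of 21.58, 14.90, 13.89 and 10.78 later. Its log2 changes of 1.54, 1.0, 0.90 and 0.54 were called at D5 only. That alignment spans 210 bases at 83.33% identity. In A. cahirinus, Ltbp2 and Fbn1 cannot be told apart in the component used for the list.

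Among the fibulins, the mean log2 change over 4 days was largest for Fbln2 in both species (3.01 in M. musculus, 2.16 in A. cahirinus) and smallest for Fbln1 (0.97 and -0.08). Fbln2 binds fibrillin and the basement membrane. Its M. musculus D0 libraries lay at 545.7, 550.1 and 584.4 (560.0 ± 21.2, SD, n = 3) and its later means at 3798, 4501, 5285 and 4630, log2 changes of 2.76, 3.01, 3.24 and 3.05. The A. cahirinus D0 libraries lay at 1562, 1779 and 1858 (1733 ± 153, SD, n = 3) and the later means at 2777, 14780, 11110 and 7883, log2 changes of 0.68, 3.09, 2.68 and 2.19. All 8 values were called, and at D10 the species differed by 0.09.

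Fbln5 was called higher on each day in M. musculus and from D10 in A. cahirinus. The M. musculus D0 libraries lay at 152.5, 171.0 and 181.1 (168.2 ± 14.5, SD, n = 3). At D5 single libraries of 374.1, 389.5 and 419.6 stood above all of these (exact two-sided permutation test, p = 0.1, the smallest possible), and the log2 changes were 1.23, 1.93, 1.84 and 1.91. The A. cahirinus D0 libraries lay at 600.2, 615.7 and 636.4 (617.4 ± 18.2, SD, n = 3), the tightest of that species, and the means at 711.5, 1013, 1145 and 1094. The D5 log2 change of 0.20 was not called (posterior probability 0.802), while 0.71, 0.89 and 0.82 were.

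Fbln1, a component of elastic fibres and basement membranes, had the smallest M. musculus response averaged over the 4 days. Its D0 libraries there lay at 158.0, 164.2 and 218.4 (180.2 ± 33.2, SD, n = 3), and the means declined from 492.5 at D5 through 404.1 and 324.3 to 238.0 at D20. The log2 changes of 1.45, 1.17 and 0.85 were called, and 0.40 at D20 was not (posterior probability 0.495). In A. cahirinus the D0 libraries lay at 376.1, 416.5 and 445.8 (412.8 ± 35.0, SD, n = 3) and the means at 353.9, 327.3, 449.3 and 451.9. Only the D10 log2 change of -0.33 was called, as lower, while -0.22, 0.12 and 0.13 were not. The 2 D15 libraries stood at 286.4 and 612.2, on either side of the whole D0 range. An exact two-sided permutation test of these 2 against the 3 D0 libraries gave p = 1.0. With so few libraries its p-value cannot fall even to 0.1, the smallest of 3 against 3.

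Emilin1, which binds elastin and fibulins, was the exception of the list, since its mean change was larger in A. cahirinus. The A. cahirinus D0 libraries lay at 111.5, 143.6 and 164.3 (139.8 ± 26.6, SD, n = 3). At D5 they stood at 503.1, 511.9 and 547.1 (520.7 ± 23.3, SD, n = 3), all above D0 (exact two-sided permutation test, p = 0.1, the smallest possible). The means then reached 1809, 1335 and 852.8, and the log2 changes were 1.90, 3.69, 3.25 and 2.61, all called, with D10 12.9-fold above D0. In M. musculus the D0 libraries lay at 111.5, 127.6 and 147.9 (129.0 ± 18.2, SD, n = 3), and the means of 691.0, 779.9, 747.3 and 560.0 gave log2 changes of 2.42, 2.60, 2.53 and 2.12, all called.

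Set side by side, 9 of the 10 genes had a lower mean log2 change over the 4 days in A. cahirinus than in M. musculus, and 8 were lower on every day (8 and 7 of the other 9 without Ltbp2). The A. cahirinus minus M. musculus difference was -2.79 for the mixed Ltbp2 component (range over days -3.33 to -2.44), -2.78 for Eln (-3.23 to -1.84), -2.5 for Fbn2 (-3.45 to -1.53) and -2.27 for Mfap5 (-3.42 to -1.74). Next came Mfap2 at -1.69, Fbn1 at -1.65, Fbln5 at -1.07, Fbln1 at -1.04 and Fbln2 at -0.85. Emilin1 was at 0.45, with a range of -0.52 to 1.1. The median over the list was -1.67, against 0.04 over 12370 named pairs (mean of 10 or more in each species), of which 46.4% had a lower mean change in A. cahirinus and 26.3% were lower on every day. For 8 of the 10 genes, and 7 of the 9 without Ltbp2, the difference was -1 or below, as it was for 7.36% of the pairs. The pairs include components that score higher to another gene, such as that of Mfap4, which scores higher to Kmt2e. The 4 comparisons of a species share their D0 libraries, the tables were normalized separately and the difference was not tested.

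**Figure D5:**
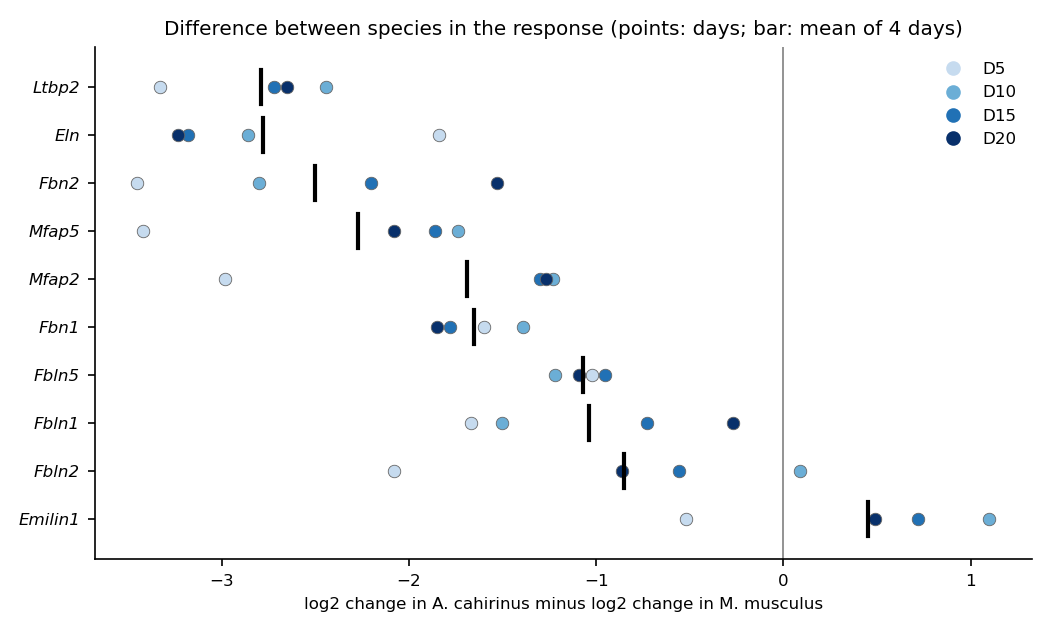
A. cahirinus minus M. musculus log2 change of each gene (x axis) on each day (points) with the mean of the 4 days (black bar). Points of 8 genes lie wholly to the left of 0, Fbln2 touches it at D10, and Emilin1 has 3 of its 4 points to the right.

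The species difference was at its most negative at D5 for 6 of the 9 genes other than Ltbp2. For Ltbp2 the day depended on the component, since the mixed one was most negative at D5 (-3.33) and the shallow one that matches no other gene was least negative there (-2.39, against -2.8, -2.78 and -2.69 later). From D5 to D20 it went from -3.45 to -1.53 for Fbn2, from -2.98 to -1.27 for Mfap2, from -3.42 to -2.08 for Mfap5 and from -1.67 to -0.27 for Fbln1. Eln went the other way, from -1.84 to -3.23, and Fbn1 held between -1.85 and -1.39. For Fbln5 the difference lay between -1.22 and -0.95 on all days.

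Lysyl oxidases cross-link elastin and collagen. Calls of this and the following lists are to be read against the shares called over all features, given above by species and day. In M. musculus 4 of 5 were called higher and 1 lower on every day, with a list median of 1.82 to 2.33. In A. cahirinus 1, 3, 3 and 2 of 5 were called higher on D5 to D20 and 1 lower each day, with medians of -0.01, 0.91, 0.78 and 0.58. By mean log2 change the highest was Loxl1 at 3.03 in M. musculus and Loxl3 at 1.22 in A. cahirinus, and Loxl4 was lowest in both species, at -2.01 and -1.62, called lower on all 4 days in each. Lox itself was called higher on every day in M. musculus (mean log2 change 2.30) and on none in A. cahirinus (0.23).

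Of the other fibulins and relatives, 2, 2, 2 and 3 of 4 were called higher in M. musculus and 2, 1, 1 and 1 lower, while of 2 counted in A. cahirinus 2, 1, 1 and 1 were called higher and 0, 0, 1 and 1 lower. Hmcn1 (hemicentin-1) was highest of its list in both species, with a mean log2 change of 3.12 (M. musculus) and 1.32 (A. cahirinus), and was called higher on all days in each. Efemp1 (fibulin-3) was lowest, at -1.10 in M. musculus, where it was called lower on all days, and 0.02 in A. cahirinus, where it was called higher at D5 and lower at D15 and D20. The next list held other latent TGF-beta binding proteins, emilin relatives and Mfap4. In M. musculus 4, 5, 5 and 5 of 7 were called higher and 2, 1, 0 and 0 lower. In A. cahirinus 2, 2, 3 and 3 of 6 were called higher and 4, 2, 2 and 3 lower. Emilin2 was highest in A. cahirinus (1.19) and Mfap4 in M. musculus (1.66), and Ltbp4, which supports elastic fibre assembly, was lowest in both, at -1.53 and -0.08. The A. cahirinus components of Mfap4 and Efemp2 scored higher to another gene and were left out of these counts.

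ADAMTS and ADAMTS-like proteins include several that bind microfibrils. Of 8 measured in M. musculus, 1, 3, 3 and 4 were called higher and 1, 1, 1 and 0 lower. Among all M. musculus genes with a mean of at least 10, 23.8%, 21.3%, 18.9% and 17.6% were called higher and 19.4%, 19.6%, 17.9% and 17.0% lower. Of 9 measured in A. cahirinus, 0, 2, 3 and 3 were called higher and 7, 4, 2 and 3 lower. These 9 include Adamtsl2, whose component had a highest group mean of 0.983 normalized counts and was called on no day. Among all A. cahirinus components with a mean of at least 10, 7.52%, 5.06%, 5.13% and 4.02% were called higher and 4.09%, 3.37%, 4.11% and 3.86% lower. Adamts6 was highest in both species, with a mean log2 change of 1.53 and 1.16, and the lowest were Thsd4 (-0.75) in M. musculus and Adamtsl5 (-1.26) in A. cahirinus.

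Most of the measured genes of elastin-degrading enzymes were called higher on each day in both species. In A. cahirinus 5 of 5 measured were called higher at D5, D10 and D15 and 4 at D20, and in M. musculus 3 of 4 on every day with 1 lower. Mmp9 was highest in A. cahirinus with a mean log2 change of 3.94, but its M. musculus gene number was not placed. Ctsk (cathepsin K) was highest in M. musculus at 2.41. The lowest were Mmp2 in A. cahirinus at 1.25 and Mmp12, the macrophage elastase, in M. musculus at -0.56. For the TGF-beta ligands, Tgfb3 was highest in both species, at 1.83 in M. musculus and 2.04 in A. cahirinus, the latter from a component that also matches Tgfb1, and Tgfb2 was lowest at -0.10 and 0.20. Among the 3 ligands 2 were called higher on every day in M. musculus, and of 2 counted in A. cahirinus 1 at D5 and 2 from D10. Tgfb2 was called lower at D5 in both species.

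Genes whose 8 log2 changes lay nearest to those of Fbn1, by Euclidean distance among the 12370 pairs, were Oaf (0.77), Fam167a (0.81) and Nid2 (0.88). Nearest to Eln were Csdc2 (1.25), Fndc1 (1.34) and Mfap4 (1.48), the last in A. cahirinus from a component that scores higher to Kmt2e. Csdc2, at -0.97, -0.49, -0.51 and -1.03 in A. cahirinus against 0.09, 1.53, 2.86 and 3.16 for the M. musculus gene, was the nearest of these to Eln.

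Cell type markers moved on the same days. Among the 7 fibroblast markers measured in each species, single genes ran from Dcn at a mean of -0.41 to Col3a1 at 2.22 in A. cahirinus, and from Dcn at 0.28 to Col1a1 at 3.47 in M. musculus. Summed smooth muscle and pericyte markers changed by -0.83, 0.02, -0.39 and -0.97 in A. cahirinus (M. musculus 0.33, 0.17, -0.07 and -0.51), with Cnn1 (1.52) and Acta2 (1.83) highest and Des lowest (-1.25 and -1.61). Des, also a skeletal muscle gene, makes up much of these sums at D0, and the median marker changed by -0.70, 0.04, 0.32 and -0.18 in A. cahirinus (M. musculus 0.99, 1.4, 1.39 and 0.61). In M. musculus 3, 4, 4 and 2 of 6 were called higher and 1 lower on each day. In A. cahirinus 0, 2, 2 and 1 of 5 were called higher and 3, 1, 2 and 2 lower. These sums and medians hold different genes, since Acta2 was counted in M. musculus alone. Its A. cahirinus component, at 1.13, 0.71, 0.38 and -0.025 and called higher on the first 3 of these days, scored higher to another gene. Endothelial markers, 4 of 4 measured, changed by -0.34, -0.16, -0.36 and -0.83 in A. cahirinus (M. musculus 1.11, 0.70, 0.62 and 0.64), from Pecam1 (-0.55) to Tek (-0.07) and from Tek (0.48) to Cdh5 (0.84). No marker of any list was at 0 in the D0 group. The part of these cell types in the results was not tested.

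The remaining lists give the makeup of the ring. Macrophage markers, 4 of 5 measured in each species, changed in sum by 1.92, 1.04, 0.59 and 0.28 in A. cahirinus. In M. musculus the sum changed by 2.03, 1.60, 1.32 and 1.41. Adgre1 (2.62) was highest and Cd14 (0.74) lowest in A. cahirinus, and Cd14 (2.80) and Csf1r (0.89) in M. musculus. The 4 genes differ, since Cd68 was counted in A. cahirinus alone and Csf1r in M. musculus alone. Lyz2 makes up most of both sums at D5. Skeletal muscle markers changed by -3.49 to -2.48 in A. cahirinus (2 of 5 measured, Myh4 at -2.86 and Tnnt3 at -3.47) and by -3.19 to -2.68 in M. musculus (5 of 5, Acta1 at -1.97 and Myh4 at -3.50). Adipocyte markers changed by -2.86 to -0.97 and by -0.88 to -0.37, with Fabp4 (-1.79 and -0.59) the least lowered and Adipoq (-2.82 and -1.57) the most. Cartilage markers changed in sum by -1.12 to -0.78 in A. cahirinus (3 of 5 measured, Acan at -0.89 and Sox9 at -1.24) and by -0.73 to 0.13 in M. musculus (4 of 5, Acan at -0.86 and Col2a1 at 2.62). These sums hold different genes, since Sox9 was not measured in M. musculus and the A. cahirinus Col2a1 component, called higher on each day (0.92, 2.46, 2.22 and 1.67), scored higher to another gene and was not counted. Keratinocyte markers changed by 0.01 to 0.32 in A. cahirinus, where Krt10 (0.18) was the single gene counted. In M. musculus they changed by -0.04 to 1.84, between Krt10 (0.29) and Krt1 (4.48). The uncounted A. cahirinus components of Krt5, Krt14 and Krt1 scored higher to another gene and were called higher at D5 (2.77, 1.29 and 1.78). Those of Krt5 and Krt1 were called higher on later days too, and that of Krt14 lower at D15 and D20.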

How the data were processed

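Total RNA of a ring of ear tissue was sequenced by the authors as strand-specific 50-bp paired-end libraries, quantified with RSEM and compared with EBSeq at an FDR of 0.05, per the study's methods, after depletion of ribosomal RNA, per the labels. The deposited comparison tables, 8 in all, hold the authors' posterior probability, a score between 0 and 1, and a pair of fold changes given as the ratio D0 over later day. Nothing else in these tables could be used, so their calls are the authors' test, and the only tests added were exact two-sided permutation tests of the few genes and days with single later libraries. Signs were turned so that positive means higher after injury. The authors' deposited BLASTN table gives identity in percent, alignment length and bit score, the last 2 recorded as other. Group means follow from the pair of ratios. After scaling, the 4 D0 means of a species differed by at most 0.0039 (log2).

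The 4 tables weight the D0 libraries slightly differently, so 4 equations gave the 3 D0 counts. These are RSEM expected counts: 94.3% of A. cahirinus and 72.3% of M. musculus values were whole, within 0.01. Later libraries were accepted only where whole reads gave a single solution, fewer than 0.02 were due by chance and the gene's D0 counts were whole. In simulated M. musculus data, D0 counts of 99.41% of 19259 genes were recovered, and at D5 241 of 300 genes were accepted, 0 of them wrong. All simulated counts were whole, so the simulation cannot show how often a count that is not whole gives a false single solution. A. cahirinus libraries were not simulated. Intervals of counting cover counting error only, since the reads carry no molecular identifiers.

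M. musculus gene numbers were named from the order of the deposited reference along GRCm38 (minimap2 2.31, GENCODE M21; mm10 in the labels). Of known numbers held out, 1689 of 1706 placed were right (99%). Among the members 5 were known (Fbn1, Fbn2, Ltbp2, Fbln1 and Fbln5) and 5 placed in order (Eln, Mfap2, Mfap5, Fbln2 and Emilin1). The smallest margin over the next best placement was 6.2, for Emilin1, where at least 5 was required. A. cahirinus components were the top BLASTN bit score below 99% identity. In pathway and marker lists, a component that scored higher to another gene was not counted. The named genes were the members, the highest and lowest gene of each list by mean log2 change among genes with a mean of at least 10, and the 3 nearest pairs to Fbn1 and Eln. Members and lists were chosen with earlier results of these data known. Alternatives were a threshold of 0.99, a least log2 change of 1, a least mean of 10, the second fold change, a pseudocount of 1, centring, summed components, no identity limit and leaving out D15. Other Ltbp2 components, the list without Ltbp2, another Eln component and leaving out each D0 library were added after seeing the data. The list rule took the top match to Ltbp2 although it scored higher to Fbn1. Computation used SciPy 1.17.1, pandas 2.3.3, NumPy 2.4.6 and Python 3.11.15.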

Additional observations from a re-analysis of the deposited data

Results flagged for a closer look

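Mfap5 at D5 went in opposite directions in the 2 species, at -1.95 (log2) in A. cahirinus and 1.47 in M. musculus, both called. All 3 A. cahirinus D5 libraries were below their D0 libraries and all 3 M. musculus D5 libraries above theirs, and the difference itself was not tested.

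Fbln1 at D10 was also called in opposite directions, at -0.33 in A. cahirinus and 1.17 in M. musculus. Library values at D10 were not recovered for it, and the difference was not tested.

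Short A. cahirinus contigs that are 100% identical to M. musculus Fbn1 were left out by the identity limit and appear in no comparison above. The longest alignment, 378 bases, had a mean of 2.16 normalized counts at D0 and 0.338, 1.83, 0.33 and 0 on D5 to D20. A second, of 294 bases, had 3.95 at D0 and 0.422, 3.2, 0 and 1.12 later.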

How the results depend on the processing

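The count of members called changed by more than 1.5 times only with a least log2 change of 1, in A. cahirinus, among the alternatives run: from 4 to 1 higher at D5, from 8 to 4 higher at D15, from 7 to 4 higher at D20 and from 1 to 0 lower at D10. Without Ltbp2 the M. musculus median at D20 was 2.43 rather than 2.55. The other 156 alternative values of counts and medians stayed within 1.5 times the count or within the spread, and no called value turned its direction. The median difference between species lay between -1.72 (without D15) and -1.65 (without Ltbp2). Among single genes, 617 alternative values moved by less than the spread between D0 libraries, 6 moved by more and 5 lost a call, as did 2 values of a sum by the call of its deepest component, all of them Ltbp2 in A. cahirinus except a value of Mfap5. The Ltbp2 component that matches no other gene gave 1.54 at D5 and lost the call at D10, D15 and D20 (1.0, 0.90 and 0.54). The component that scores best to Ltbp2 gave 1.09 at D10 and 0.71 at D15 and lost the call at D5 and D20 (0.48 and 0.40). The sum of these 2 components, which leaves out the top match, gave 0.49, 1.09, 0.71 and 0.40, and a sum has no posterior probability of its own. Mfap5 without D15 differed between species by -2.41 rather than -2.27. No paired analysis was possible because the tables hold pooled comparisons with no numbered replicates. Each D0 library was left out in turn, an alternative added after seeing the data, which gives values without calls because the posterior probability cannot be refitted. Of 80 log2 changes the largest shift was 0.29 (Mfap2 in A. cahirinus). Of called values 0 turned sign, and 1 that was not called did (Mfap5 in A. cahirinus at D20, -0.04 to 0.04). Such a shift is bounded by the spread of the same D0 libraries, so it cannot be checked against that spread. The A. cahirinus median at D5 then lay between -0.05 and 0.02. Single later-day libraries were not left out. Depth limits the D0 values of Mfap2 in M. musculus most, and the A. cahirinus D15 means rest on 2 libraries.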

Other observations

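Of the pathway genes beside the members, 16, 19, 19 and 21 of 31 measured were called higher and 8, 5, 4 and 3 lower in M. musculus at D5 to D20, with medians of 0.53, 0.89, 0.82 and 0.89 (log2). In A. cahirinus 11, 15, 17 and 15 of 29 were called higher and 13, 7, 6 and 8 lower, with medians of -0.30, 0.65, 0.78 and 0.58. At D5 more of these genes were called lower than higher in A. cahirinus and more higher than lower in M. musculus. Of all A. cahirinus components with a mean of at least 10 at D5, 7.52% were called higher and 4.09% lower. Of all such M. musculus genes, 23.8% were called higher and 19.4% lower, the same direction as the pathway genes there. The difference between species was not tested.

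Per kilobase, the Fbln2 to Fbln5 ratio in A. cahirinus went from 0.861 at D0 (libraries 0.798 to 0.925) to 4.48 at D10, its highest day. In M. musculus it went from 4.38 at D0 (libraries 4.00 to 5.04) to 12.7 at D5, its highest day. The height of the A. cahirinus ratio depends on contig length, since Fbln2 is divided by 12232 bases of which 2265 align, so the species can be compared only by the course of the ratio over days.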
